A study of Mus musculus with 12 samples.

Results

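The nuclear factor I (NFI) family of mouse has 4 genes, Nfia, Nfib, Nfic and Nfix, and all 4 were found by gene symbol among the 24421 genes of each deposited expression table. They were followed across 12 polyA RNA libraries in 4 groups of 3. The ETV5 tumours were ependymomas carrying the ZFTA-RELA fusion in which human ETV5, a transcription factor of the ETS family, was overexpressed. In the NPY tumours, which carried the same fusion, human NPY (the neuropeptide Y precursor) was overexpressed. Control tumours carried ZFTA-RELA alone, so the fusion was shared by all 9 tumour libraries, and the remaining group was non-tumour cortex of wild-type mice. The labels give no age, no way of delivery, no promoter that drives the added genes and no statement that replicates came from separate animals, so that p-values cover the spread among these libraries, which may be technical.

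All NFI genes passed the filter on low counts in every comparison. Depth was 6691146 to 11291057 reads in ETV5 tumours, 8214523 to 10481943 in NPY tumours, 6266613 to 9443466 in control tumours and 5962376 to 7444467 in cortex. Levels are CPM, each library's reads divided by its own recovered total, and means carry the SD of the 3 libraries of a group (n = 3). Only mouse genes were counted, and whether reads of human ETV5 or NPY were placed at mouse Etv5 or Npy was not tested. Mouse Etv5 was at 400.8 to 473.9 CPM in ETV5 tumours, above all 9 other libraries. Mouse Npy was at 2.19 to 15.9 CPM in NPY tumours and 1.44 to 18.5 CPM in ETV5 tumours. It was at 21.5 to 46.1 CPM in control tumours and 78.4 to 129 CPM in cortex. The 6 markers of motile cilia, the defining structure of ependymal cells, summed to 1.83 to 25.4 CPM in tumours and 42.1 to 57.9 CPM in cortex. The labelled ependymomas thus had less of this summed RNA than these cortex libraries. Foxj1, one of the 6, overlapped between control tumours (6.38 to 13.0 CPM) and cortex (9.22 to 11.4 CPM). It was at most 8.22 CPM in ETV5 and 4.58 CPM in NPY tumours. The 5 markers of choroid plexus summed to 554 to 1389 CPM in cortex and at most 80.2 CPM in tumours. In bulk tissue, fewer cells of a type and less RNA per cell cannot be told apart.

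NFI proteins bind DNA as dimers, as homodimers or with each other, at a palindrome of TTGGC repeats, and a single arm can also be bound. In the developing nervous system they act at the change from neuron to glia production. NFIA and NFIB promote the onset of gliogenesis and astrocyte differentiation, NFIX is known for neural stem cell quiescence and hippocampal development, and NFIC is best known outside the brain, in the growth of tooth roots.

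On the mm10 build with the GENCODE M21 annotation, Nfia (ENSMUSG00000028565) lies on chromosome 4 from 97772734 to 98118874 on the plus strand. Nfib (ENSMUSG00000008575) lies on the same chromosome from 82290173 to 82705750 on the minus strand. Nfic (ENSMUSG00000055053) spans 81396186 to 81455635 of chromosome 10 and Nfix (ENSMUSG00000001911) spans 84699876 to 84800344 of chromosome 8, both on the minus strand. Their merged exons measured 10.9 kb, 14.96 kb, 6.63 kb and 7.35 kb in that order. Exons of other genes covered at most 1.86% of a member's exons (137 bases of Nfix, shared with G430095P16Rik), and it is not known from the labels whether strand was used in counting.

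The promoters of Ezh2 and Mmd2, both reported as NFI targets in the brain, are shown with the letters of the NFI motif that they hold. Ezh2, the histone H3 lysine 27 methyltransferase of the Polycomb complex, is reported to be repressed by NFIB in cortical progenitors, and Mmd2, a membrane protein of early astrocyte precursors, is reported to be activated by NFIA with SOX9. The sequences are from RefSeq (GRCm38.p6), each from 250 bases before to 50 bases after the transcript start, minus strand of the chromosome, written 5′ to 3′ in the direction of transcription. Capitals mark the single-arm NFI motif TTGGCA, searched on both strands.
Ezh2, chr6:47594981-47595280: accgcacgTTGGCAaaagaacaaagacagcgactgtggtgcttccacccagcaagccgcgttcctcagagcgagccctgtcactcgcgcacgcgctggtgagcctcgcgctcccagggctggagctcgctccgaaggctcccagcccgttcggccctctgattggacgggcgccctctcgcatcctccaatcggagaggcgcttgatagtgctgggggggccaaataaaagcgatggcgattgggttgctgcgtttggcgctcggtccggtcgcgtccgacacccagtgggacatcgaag
Mmd2, chr5:142608703-142609002: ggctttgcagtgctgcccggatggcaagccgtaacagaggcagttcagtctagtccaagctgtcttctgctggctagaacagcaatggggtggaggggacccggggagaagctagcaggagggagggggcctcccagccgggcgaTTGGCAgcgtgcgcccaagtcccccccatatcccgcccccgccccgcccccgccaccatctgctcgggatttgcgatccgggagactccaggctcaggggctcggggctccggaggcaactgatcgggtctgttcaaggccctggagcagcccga

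Of 17 reported targets, 11 had such a window and 4 of these (Ezh2, Gabra6, Insc and Mmd2) held the single-arm motif. Among 32544 windows of different sequence, 14.1% held it. A target was counted if any of its windows held the motif, so the count of targets and the share of windows are unlike measures. The full palindrome, TTGGCNNNNNGCCAA, which can include the single-arm motif, was in 12 windows (0.0369%) and in none of the 11. A match to these letters describes the window and is not a measured site.

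Nfia was at 56.7, 77.6 and 58.9 CPM in ETV5 tumours, 33.4, 13.5 and 36.7 CPM in NPY tumours, 57.9, 58.7 and 71.2 CPM in control tumours, and 48.0, 41.9 and 38.0 CPM in cortex (replicates 1, 2 and 3). The NPY tumours lay below all other libraries, their replicate 2 lowest of all, and the ETV5 and control tumours overlapped each other above the cortex. Group means were 64.4 ± 11.5, 27.9 ± 12.6, 62.6 ± 7.44 and 42.6 ± 5.01 CPM for ETV5, NPY, control and cortex.

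Nfib read 129, 289 and 105 CPM in ETV5 tumours, 59.0, 46.1 and 64.3 CPM in NPY tumours, 163, 83.9 and 115 CPM in control tumours, and 121, 102 and 79.2 CPM in cortex. Again the NPY tumours were lowest without overlap, while the other groups overlapped one another. A single library, ETV5 replicate 2, set the ETV5 mean of 174 ± 100.1 CPM. Means of the other groups were 56.5 ± 9.34 CPM in NPY tumours, 121 ± 39.8 CPM in control tumours and 101 ± 21.1 CPM in cortex.

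Nfic varied least. It measured 137, 158 and 152 CPM in ETV5 tumours, 111, 134 and 137 CPM in NPY tumours, 146, 128 and 114 CPM in control tumours, and 100.3, 104 and 85.9 CPM in cortex. All tumour libraries were above all cortex libraries on this scale, and of the tumour groups only ETV5 and NPY did not overlap, the lowest ETV5 library (137.3 CPM) being just above the highest NPY library (136.9 CPM). Their means were 149 ± 10.7, 127 ± 14.3 and 129 ± 16.3 CPM for ETV5, NPY and control tumours, against 96.8 ± 9.63 CPM in cortex.

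For Nfix the values were 98.2, 209.5 and 154 CPM in ETV5 tumours, 78.9, 109.6 and 71.6 CPM in NPY tumours, 138, 109.7 and 105 CPM in control tumours, and 157, 163 and 96.7 CPM in cortex. Here the groups overlapped, and NPY replicate 2, the lowest library for Nfia and Nfib, was the highest of its group. Mean Nfix was 154 ± 55.7, 86.7 ± 20.2, 118 ± 18.0 and 139 ± 36.6 CPM in ETV5, NPY, control and cortex libraries.

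**Figure D1:**
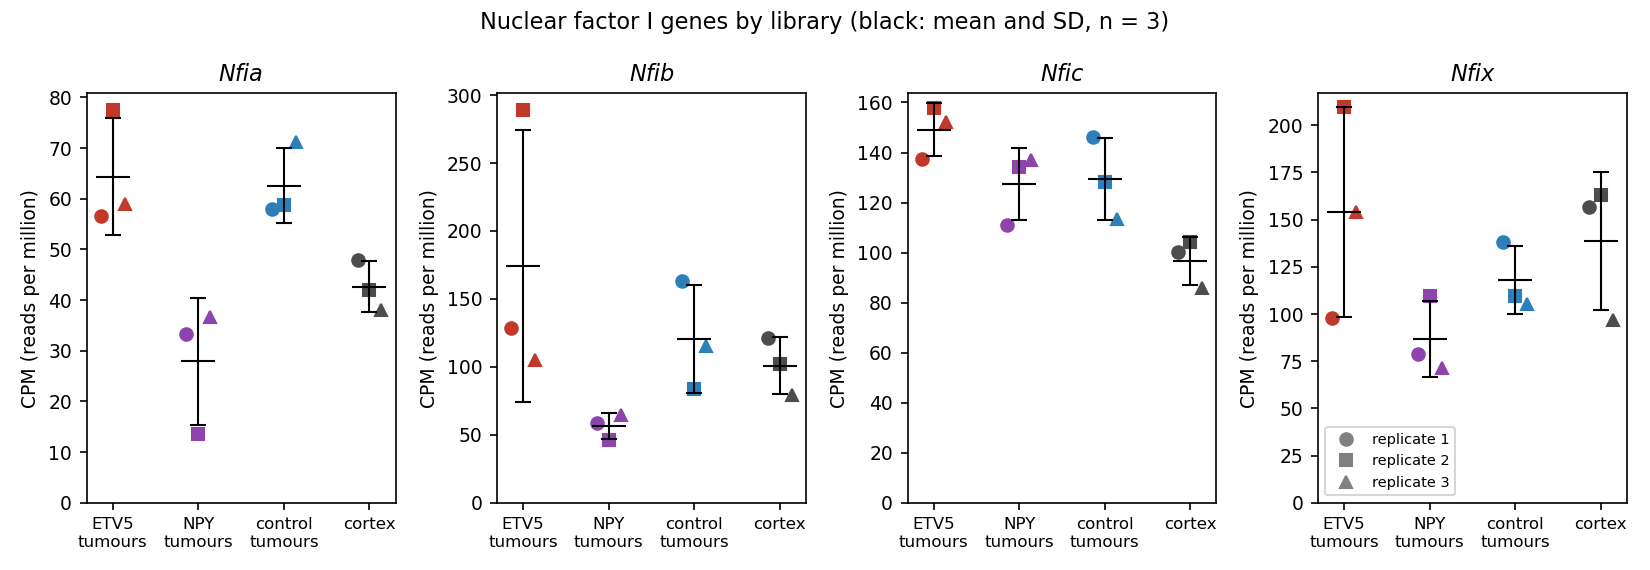
Level of each NFI gene (CPM) in the 12 libraries, by group, with the mean and SD of 3 libraries in black and replicates marked by shape. Nfia and Nfib of all NPY tumours sit below every other library, with means of 27.9 and 56.5 CPM, while Nfic stays between 85.9 and 158 CPM throughout.

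Set against control tumours, NPY tumours had less Nfia and Nfib in every library, but neither difference passed the test across all genes. The log2 fold change of Nfia was -1.20 (SE 0.37, 95% interval -2.09 to -0.31, adjusted p = 0.119 by limma with Benjamini-Hochberg adjustment over 14425 genes), 2.30-fold lower. That of Nfib was -0.97 (SE 0.26, interval -1.58 to -0.36, adjusted p = 0.082, limma), 1.96-fold lower. Of the 4 NFI genes, 0 were called, where 5.04% of all genes were called (4.31% lower and 0.728% higher), and 2 were lower without overlap of the libraries, where 18.4% of all genes were so by CPM and 15.8% on the deposited scale.

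Nfic did not follow them, at 0.06 (interval -0.32 to 0.45, adjusted p = 0.851, limma), and Nfix stood at -0.37 (SE 0.21, adjusted p = 0.336, limma). DESeq2 on the recovered reads did call Nfia (-1.10, adjusted p = 0.041) and Nfib (-1.02, adjusted p = 0.009), with 12.7% of all genes called by that tool, and edgeR called neither (adjusted p = 0.137 and 0.074). Without NPY replicate 2 the Nfia difference was -0.75 (adjusted p = 0.054, limma).

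Between ETV5 and control tumours no NFI gene passed the test. Nfia differed by 0.02 on the log2 scale, with a 95% interval of -0.40 to 0.44 (adjusted p = 0.986, limma). Nfib was at 0.43 (interval -0.57 to 1.42, adjusted p = 0.831, limma), a wide range, and it turned to -0.0035 without ETV5 replicate 2. Nfic and Nfix were at 0.20 and 0.32 (adjusted p = 0.807 and 0.826, limma). No gene of the 14382 tested was called by limma (0%), or by edgeR, 944 had an unadjusted p under 0.05, and DESeq2 called 75 (0.544%), none of them an NFI gene.

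In the direct comparison of the tumours with an added gene, Nfia, Nfib and, by CPM alone, Nfic were higher in each ETV5 library than in each NPY library. Nfia and Nfib differed by 1.26 (SE 0.38) and 1.43 (SE 0.37) on the log2 scale. Neither passed (adjusted p = 0.817 for both, limma on reads scaled over all 12 libraries together, since the deposited tables were normalized separately). Ordered by p among 14023 genes, Nfib ranked 53 and Nfia ranked 147. By limma 0 genes were called (0%), by edgeR also 0, with 802 at an unadjusted p under 0.05, and DESeq2 called 56 (0.425%). Higher in ETV5 without overlap were 7.47% of all genes by CPM and 5.77% by the joint scaling. Nfic and Nfix differed by 0.17 and 0.73 (adjusted p = 0.865 and 0.817, limma).

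The library descriptions carry a code with the prefix DS or EC, whose meaning the labels do not give. Cortex, control tumours and ETV5 replicates 1 and 2 have DS, and ETV5 replicate 3 and all NPY tumours have EC, so NPY against control or cortex cannot be told apart from the prefix. ETV5 replicate 3, with the prefix of the NPY tumours, had 58.9 CPM of Nfia and 105 CPM of Nfib, above the highest NPY values of 36.7 and 64.3 CPM. Among DS libraries alone, ETV5 against control tumours gave 0.05 for Nfia and 0.69 for Nfib (adjusted p = 0.963 and 0.710, limma).

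Tumours were also compared with non-tumour cortex. In control tumours 1 of 4 was called, where 72% of all genes were (35.7% higher and 36.2% lower), and this was Nfia, higher by 0.38 (SE 0.13, adjusted p = 0.030, limma), a 1.30-fold difference. Its call ended without control replicate 2 or 3, or without cortex replicate 2 or 3 (adjusted p = 0.051, 0.068, 0.070 and 0.115 in that order). Nfib was at 0.05, Nfic at 0.24 and Nfix at -0.38 (adjusted p = 0.857, 0.160 and 0.146, limma). Nfic was called without control replicate 3 (0.36, adjusted p = 0.036, limma) and with scaling to library totals (0.42, adjusted p = 0.021), and Nfix was called lower without cortex replicate 3 (-0.63, adjusted p = 0.011). Without overlap of the libraries, Nfia and Nfic were higher by CPM, where 43.8% of all genes were, and Nfia alone on the deposited scale, where 38.3% were.

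ETV5 tumours against cortex also had 1 called member, where 63.8% of all genes were called (31.8% higher and 32% lower). This was Nfic, higher by 0.44 (SE 0.14, adjusted p = 0.031, limma), a 1.36-fold difference. The libraries of Nfia and Nfic did not overlap those of cortex, where 41.8% of all genes were higher without overlap by CPM and 36.6% on the deposited scale. The call ended without ETV5 replicate 2 or 3, or cortex replicate 1 or 3 (adjusted p = 0.062, 0.075, 0.082 and 0.116). Nfia was at 0.40, Nfib at 0.48 and Nfix at -0.06 (adjusted p = 0.081, 0.307 and 0.879, limma), and Nfia passed without ETV5 replicate 1 (0.50, adjusted p = 0.037).

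NPY tumours had 2 members called lower than cortex, where 35.8% of all genes were called lower, 35.1% higher and 71% in either direction. Nfib stood at -0.99 (SE 0.19, adjusted p = 0.002, limma), 1.99-fold lower, and this call held when any library was left out. Nfix was at -0.83 (SE 0.26, adjusted p = 0.024, limma), 1.78-fold lower, and lost its call without NPY replicate 1 or 3 or cortex replicate 1 or 2 (adjusted p = 0.067, 0.075, 0.088 and 0.092). Nfia was at -0.90 (adjusted p = 0.054, limma) and reached a call when any one NPY library was left out, at -0.46 (adjusted p = 0.016) without replicate 2. Nfic was at 0.23 (adjusted p = 0.193, limma). Nfia and Nfib were lower without overlap, where 35.2% of all genes were by CPM and 38.9% by the joint scaling, whereas the called Nfix overlapped through NPY replicate 2 and cortex replicate 3. Nfic was higher without overlap by CPM alone, where 42.1% of all genes were. The 3 comparisons with cortex share its libraries, and those of NPY and ETV5 with control tumours share the controls.

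**Figure D2:**
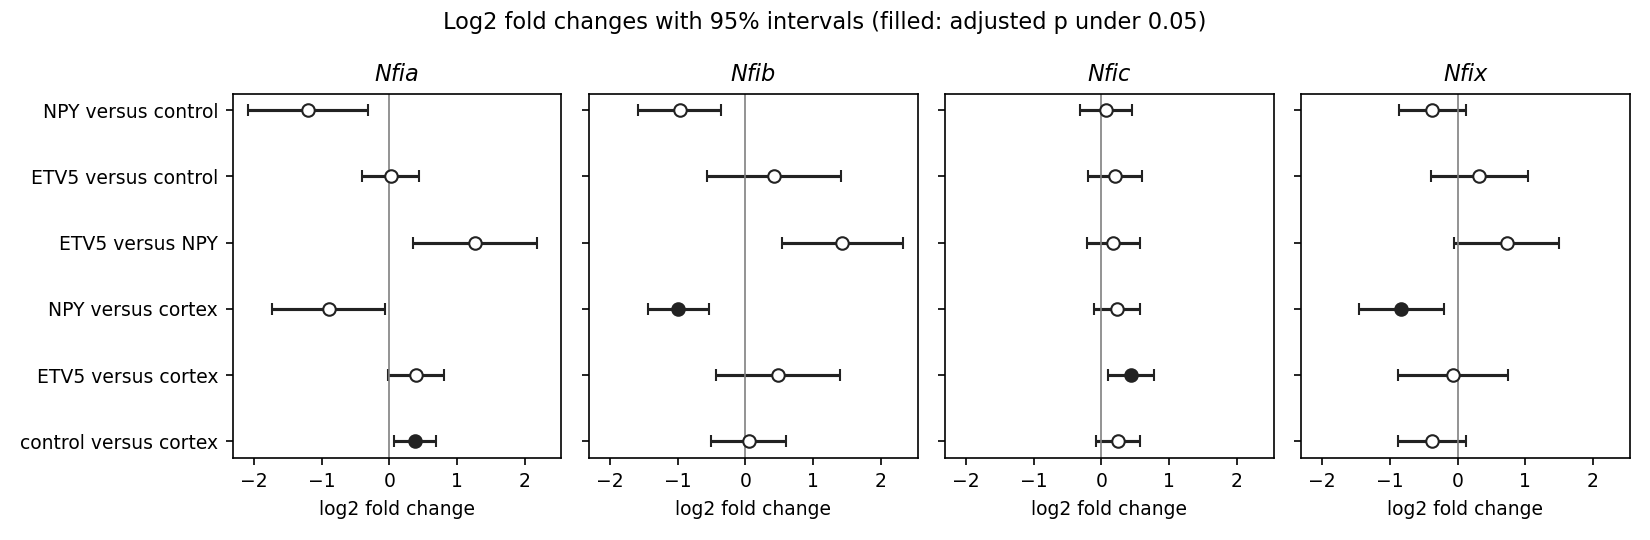
Log2 fold changes (tumours with an added gene over controls, each over cortex, and ETV5 over NPY) of the NFI genes with 95% intervals from limma. Filled points had an adjusted p under 0.05, as for Nfib (-0.99) and Nfix (-0.83) in NPY tumours against cortex. Nfia and Nfib of NPY against control tumours lie at -1.20 and -0.97 with open points.

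Levels of different genes can be compared per length only. Per kilobase of merged exon, the family total was 61.0 ± 15.96 CPM in ETV5 tumours, 37.3 ± 2.57 in NPY tumours, 49.4 ± 6.71 in control tumours and 44.2 ± 8.01 in cortex. Within a library the shares add to 100%, so a rise in one member's share lowers the others. Nfic held 43.3%, 30.2% and 40.7% of the total in ETV5 tumours, 48.5%, 51.3% and 54.3% in NPY tumours, 38.6%, 42.7% and 37.5% in control tumours, and 30.9%, 32.3% and 37.1% in cortex. Nfic was thus the leading member in all NPY libraries, where its share was above that of all other libraries.

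Nfix led in cortex, with a share of 42.3 ± 4.10%, against 33.8 ± 5.11% in ETV5, 31.5 ± 6.09% in NPY and 32.4 ± 0.936% in control tumours. The share of Nfib was 18.3 ± 6.05% in ETV5 tumours, 10.2 ± 2.05% in NPY tumours, 16.1 ± 3.41% in control tumours and 15.3 ± 1.23% in cortex. Nfia had the lowest mean share in each group, at 9.83 ± 0.941%, 6.96 ± 3.31%, 11.8 ± 2.49% and 8.97 ± 1.04%. Of 24 comparisons of a share between groups, 11 had no overlap and so reached p = 0.1 in the two-sided exact permutation test, the smallest that 3 against 3 libraries allow. Adjusted over the 24, that is 0.218, so no share passed. With the longest transcript as length, 8 of 24 had no overlap, and in ETV5, NPY and control tumours Nfix was then at a mean share of 35.6%, 34.8% and 34.7%, against 32.0%, 44.9% and 33.6% for Nfic.

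**Figure D3:**
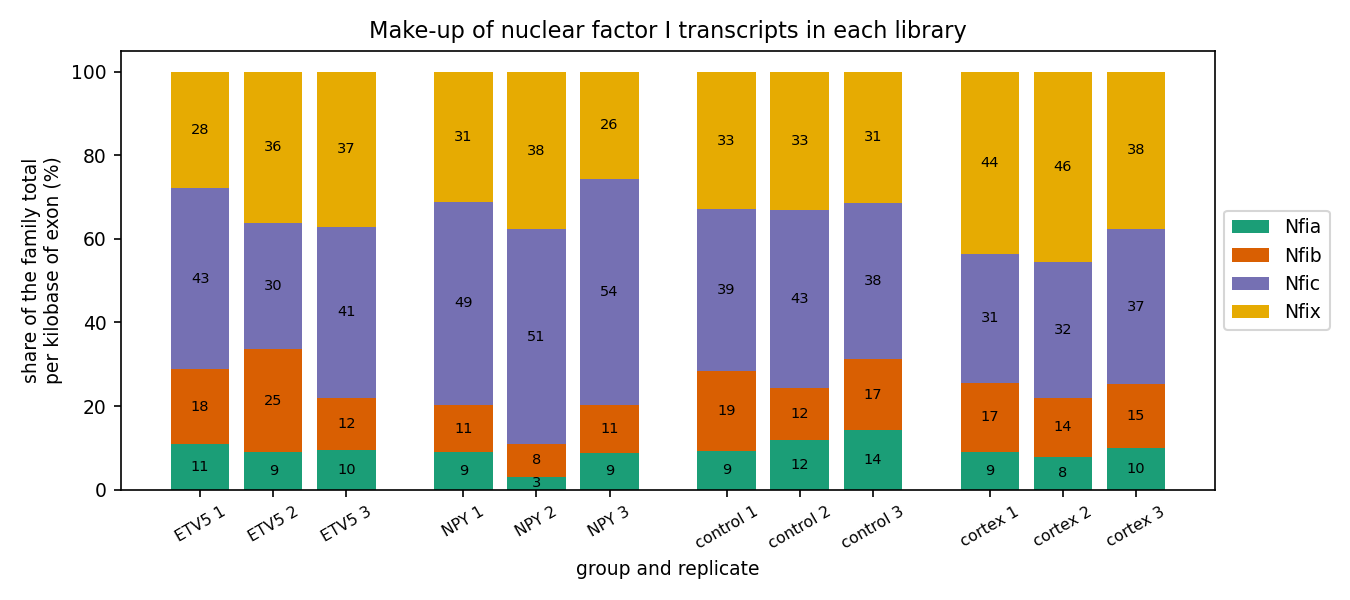
Share of each NFI gene in the family total per kilobase of merged exon, in percent, for each library. Nfic takes 48.5% to 54.3% in the NPY tumours, and Nfix takes 37.7% to 45.6% in cortex.

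Several genes that regulate the family or act with it were higher in tumours than in cortex. Of 13 upstream factors and partners, 7 were called higher and 2 lower in ETV5 tumours against cortex, 7 and 5 in NPY tumours, and 8 and 4 in control tumours. Of all genes, 31.8% were called higher and 32% lower in ETV5 tumours, 35.1% and 35.8% in NPY tumours, and 35.7% and 36.2% in control tumours. The median log2 fold changes were 1.23, 1.49 and 1.06, and over all genes tested 0.01, -0.01 and 0.00. Sox9, which induces Nfia in the spinal cord and then acts with its protein, was at 124 ± 42.3, 126 ± 1.69 and 109.4 ± 10.9 CPM in ETV5, NPY and control tumours, against 19.5 ± 0.651 CPM in cortex. Notch1, a receptor that acts upstream of Nfia in progenitors, was at 232 ± 35.6, 221 ± 75.3 and 202 ± 36.6 CPM, against 35.0 ± 3.46 CPM in cortex. Atf3 had the largest change among the called members, at 14.3 ± 4.58, 19.1 ± 9.09 and 16.9 ± 5.95 CPM, against 0.542 ± 0.127 CPM in cortex. Its log2 fold changes were 4.23, 4.63 and 4.46, with 3 to 4 reads in each cortex library. Each of these differences from cortex passed the test (adjusted p of at most 0.000221, limma).

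Pou3f2, a POU factor of upper-layer neurons, and Sox8, a SoxE gene, were called lower than cortex in each tumour group. Pou3f2 was at 14.5 ± 12.2, 2.95 ± 0.352 and 12.3 ± 7.42 CPM in ETV5, NPY and control tumours, against 31.9 ± 5.71 CPM in cortex. Between tumour groups none of the 13 was called in the main test by limma, with medians of 0.12 for ETV5 and 0.11 for NPY against control tumours, where all genes had -0.02 and 0.04. In NPY against control tumours, 0 to 2 of the 13 were called lower under the alternatives, and 0 to 1 as single libraries were left out. Of all genes, 4.31% were called lower there in the main test. Sox9 in NPY tumours against control tumours differed by 0.30 (adjusted p = 0.21, limma).

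Some genes reported as activated by NFI in glia were lower in NPY tumours. Of 9 such genes, 4 were called lower and 0 higher against control tumours, where 4.31% of all genes were called lower, with a median of -1.34 against 0.04 for all genes. Slc1a3, the glutamate transporter GLAST of radial glia and astrocytes, was at 80.4, 50.5 and 196 CPM in NPY tumours, against 537, 646 and 473 CPM in control tumours (-2.48, adjusted p = 0.036, limma). Fabp7, a fatty acid binding protein of radial glia and a classic NFI target in glioma cells, was at 33.8, 25.3 and 52.0 CPM in NPY tumours, against 78.8, 98.5 and 110.9 CPM in control tumours (-1.34, adjusted p = 0.046, limma). In both genes the NPY and control libraries did not overlap by CPM, and this held for all of the 9 but Zcchc24. Of all genes, 18.4% were lower without overlap by CPM.

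Sparcl1, a secreted matrix protein of astrocytes, was at 162 ± 100.7 CPM in NPY tumours and 603 ± 43.0 CPM in control tumours (-1.98, adjusted p = 0.041, limma). Apcdd1, an inhibitor of Wnt signalling reported downstream of NFIA and SOX9, was at 27.1, 37.4 and 32.8 CPM in NPY tumours, against 65.7, 64.2 and 66.9 CPM in control tumours (-0.94, adjusted p = 0.029, limma). The others were Gfap, the astrocyte intermediate filament (-2.18, adjusted p = 0.066, limma), Aqp4, the water channel of astrocyte endfeet (-2.27, 0.081), Mmd2 (-1.22, 0.253), Aldh1l1, a folate enzyme of astrocytes (-1.27, 0.221), and Zcchc24 (0.01, 0.979). The count of 4 was not stable. It was 0 without NPY replicate 1, 0 without any one of control replicates 1, 2 and 3, 2 without NPY replicate 2 and 5 without NPY replicate 3, and it was 1 with edgeR, 6 with DESeq2, 6 in a fit of all 12 libraries and 0 with the replicate number as a block.

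In ETV5 tumours none of the 9 was called against control tumours, with a median of -0.63. Slc1a3 there was at 88.2, 637 and 201 CPM, replicate 1 within the NPY range, replicate 2 within the control range and replicate 3 between them. Against cortex, 2 were called higher and 3 lower in ETV5 tumours, 1 and 6 in NPY tumours, and 3 and 4 in control tumours, with medians of -0.72, -1.74 and 0.37. Of all genes, 31.8% to 35.7% were called higher and 32% to 36.2% lower in these comparisons, so that counts of 3 or 4 of 9 are close to the share of all genes. Gfap was higher in control tumours than in cortex (2082 ± 455 against 295 ± 52.6 CPM, log2 fold change 2.64), and Sparcl1 was lower (603 ± 43.0 against 2445 ± 238 CPM, -2.19). Mmd2, whose promoter is printed above, was lower in control tumours as well (117 ± 31.7 against 273 ± 7.03 CPM, -1.43), each past the threshold by limma.

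**Figure D4:**
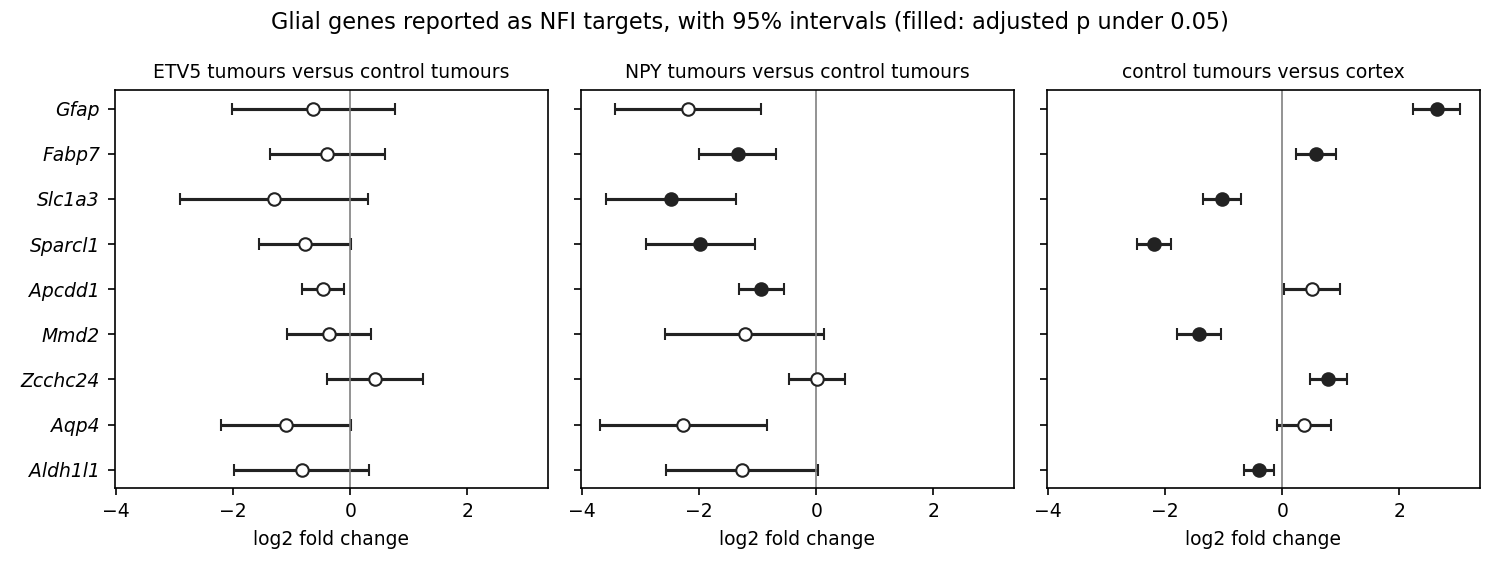
Log2 fold changes with 95% intervals (limma) of the 9 glial genes reported as NFI targets, for ETV5 and NPY tumours against control tumours and for control tumours against cortex. Against control tumours, 4 genes are filled (adjusted p under 0.05) in NPY tumours, at -2.48 to -0.94, and 0 in ETV5 tumours.

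Among 4 genes reported as repressed by NFI in neural progenitors, Ezh2 was at 52.0, 54.5 and 46.8 CPM in ETV5 tumours, 58.2, 56.4 and 50.8 CPM in NPY tumours, 42.6, 45.8 and 35.4 CPM in control tumours, and 8.60, 8.39 and 7.52 CPM in cortex. Each tumour group was called higher than cortex (log2 fold changes 2.44, 2.57 and 2.14). By CPM no Ezh2 library of the added-gene tumours overlapped the controls. Of all genes, 7.1% in ETV5 and 11.1% in NPY tumours were higher than controls without overlap by CPM. The lowest ETV5 library (46.8 CPM) was just above the highest control (45.8 CPM). Neither group passed against controls (0.30, adjusted p = 0.73, and 0.51, adjusted p = 0.12, limma). With Hes1, a Notch target, and Sox9, which counts in both lists, 3 of the 4 were called higher than cortex in NPY and in control tumours and 2 of the 4 in ETV5 tumours, where 35.1%, 35.7% and 31.8% of all genes were. Insc, a spindle orientation adaptor, was not called. Of 4 targets known from cerebellar granule neurons, 3 passed the filter and Efnb1 and Cntn2 were called higher than cortex in all tumour groups, while Gabra6, the granule cell GABA receptor subunit, was near 0 reads.

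Markers of other cells moved with these groups. The 10 genes of cortical excitatory neurons summed to 49.6, 504 and 182 CPM in ETV5 tumours, 44.9, 48.9 and 48.7 CPM in NPY tumours, and 394, 512 and 844 CPM in control tumours, against 5967 to 7497 CPM in cortex. Of these 10 genes, 8 were called lower in NPY than in control tumours, where 4.31% of all genes were. Whether this count holds when single libraries are left out was not tested. ETV5 replicate 1 had a neuron sum close to those of the NPY libraries, with 56.7 CPM of Nfia.

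A further 11 astrocyte genes, in none of the NFI target lists, summed to 868, 2171 and 1633 CPM in ETV5 tumours, 648, 383 and 969 CPM in NPY tumours, 1965 to 2134 CPM in control tumours and 6582 to 7816 CPM in cortex. Of them, 4 were called lower in NPY than in control tumours, where 4.31% of all genes were, with a median of -1.69. These were Gjb6 (-3.28, adjusted p = 0.015, limma), Slc1a2 (-2.75, adjusted p = 0.015), Mlc1 (-1.69, adjusted p = 0.041) and S100b (-0.99, adjusted p = 0.035). They include gap junction, glutamate transport and calcium binding proteins of mature astrocytes. The count of 4 ranged from 0 to 6 as single libraries were left out, and it was 0 without any one control replicate, 7 with DESeq2 and 2 with the replicate block. Against cortex, 7, 10 and 10 of the 11 were called lower in ETV5, NPY and control tumours, where 32%, 35.8% and 36.2% of all genes were. In ETV5 replicate 1 this sum also lay within the NPY range.

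Oligodendrocyte markers (8 genes) summed to 441 to 1911 CPM in ETV5 tumours, 365 to 1379 CPM in NPY tumours, 1825 to 3816 CPM in control tumours and 14501 to 18281 CPM in cortex. Of the 8, 1 was called lower in NPY than in control tumours (median -2.06), where 4.31% of all genes were. Markers of microglia and macrophages (10 genes) summed to 1380.5 to 2828 CPM in ETV5 tumours, 2368 to 4467 CPM in NPY tumours, 2732 to 5804 CPM in control tumours and 494 to 573 CPM in cortex. Markers of meningeal fibroblasts (7 genes) were at 6927 to 7233 CPM in ETV5 tumours, 6389 to 6892 CPM in NPY tumours, 5945 to 9817 CPM in control tumours and 224 to 290.3 CPM in cortex. These sums do not follow most of the genes. Against control tumours, 6 of the 7 had negative log2 fold changes in ETV5 tumours (median -1.21) and 6 in NPY tumours (median -0.72). In both comparisons 0 were called by limma, where 0% and 5.04% of all genes were. Summed neuron, astrocyte and oligodendrocyte markers were thus lower, and macrophage and fibroblast markers higher, in all tumour libraries than in cortex. The part of these cells in the NFI differences was not tested.

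The 6 proliferation genes summed to 780 to 946 CPM in ETV5 tumours, 1018 to 1420 CPM in NPY tumours, 554 to 816 CPM in control tumours and 23.2 to 27.5 CPM in cortex. Rn45s, Malat1 and Lars2, the pre-ribosomal RNA, a nuclear RNA and a further transcript that follow the RNA make-up of a library, summed to 1515 to 6395 CPM in ETV5 tumours, 1952 to 6729 CPM in NPY tumours, 990.3 to 1200.0 CPM in control tumours and 1486 to 5077 CPM in cortex. Rn45s made up most of the sum in each tumour library, and Malat1 alone was lower in NPY tumours, at 45.9 to 65.9 CPM, than in control tumours, at 145.6 to 163 CPM. The NPY tumours were thus above all controls in both sums, and the part of either in the NFI values was not tested. For the RNA make-up sum, ETV5 replicate 3, with the EC prefix of the NPY tumours, was at 6395 CPM. ETV5 replicates 1 and 2, with DS, were at 1868 and 1515 CPM, and cortex replicate 2, also DS, was at 5077 CPM. In this sum NPY against control tumours cannot be told apart from the prefix.

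**Figure D5:**
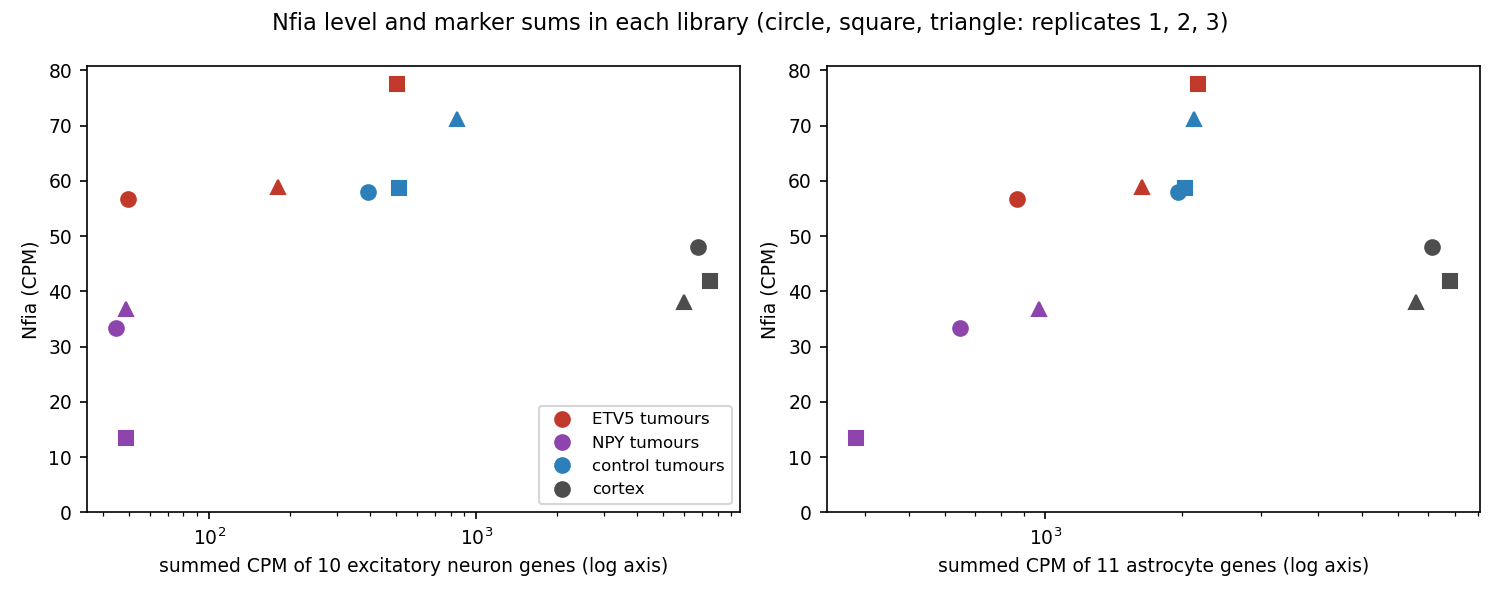
Nfia level (CPM) against the summed CPM of 10 excitatory neuron genes (left) and of 11 astrocyte genes outside the NFI target lists (right), log scale on the x axes, one point per library. NPY tumours lie at the low end of both sums with Nfia at 13.5 to 36.7 CPM, ETV5 replicate 1 shares their neuron sum at 56.7 CPM of Nfia, and cortex has the highest sums with Nfia at 38.0 to 48.0 CPM.

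Genes most like each member were ranked by the root mean square difference of their log2 values over the 12 libraries, each gene centred on its own mean, among 12384 genes. For Nfia these were Samd4 (0.276), Sirt4 (0.305) and Jam2 (0.310), where Nfia itself varied by 0.622 about its mean. Nfib was followed by Axin2 (0.289), Fuk (0.307) and Rapgef3 (0.372), and Nfib itself varied by 0.671. Nfix was followed by Pvt1 (0.197), Trim8 (0.223) and Olig2 (0.237), the last a factor of the oligodendrocyte lineage, and Nfix varied by 0.437.

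Nfic, which varied by 0.256, was followed by Dph6 (0.111), Sppl3 (0.125) and Atp6v1g1 (0.127). Within the family, Nfia and Nfib were the most alike, at 0.406, and Nfia stood 15th among the genes most like Nfib while Nfib stood 32nd for Nfia. Nfic and Nfix differed by 0.452, where Nfix ranked 4775 for Nfic. Nfib and Nfix differed by 0.464, and Nfia and Nfic by 0.620, where Nfic ranked 1597 for Nfia. Over the 9 tumour libraries alone, the smallest difference was that of Nfic and Nfix, at 0.353, against 0.460 for Nfia and Nfib. Genes that vary little differ little by this measure, and Nfic itself varied by 0.163 there. By rank among 12383 genes, Nfix stood 6067th for Nfic and Nfic stood 853rd for Nfix. Nfia stood 104th for Nfib and Nfib stood 369th for Nfia. The leading gene over these libraries was Pink1 (0.164) for Nfia, Ypel1 (0.278) for Nfib, Dedd (0.0667) for Nfic and Trim8 (0.147) for Nfix.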

How the data were processed

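The authors deposited 2 tables of 24421 genes, one with cortex, control and ETV5 libraries and one with control and NPY libraries, as a normalized signal, in which each library's reads had been divided by its size factor. Undoing this gave whole reads for 100% of values within 0.01 read, and the control reads were identical in both tables. Per the submitters' processing notes, the tools were STAR 2.5.0a on mm10, DESeq2 1.30.1, MultiQC 1.6 and FastQC 0.11.7, and per the labels the libraries were stranded mRNA libraries from 300 ng of RNA. The sources used here do not give the counting tool, its annotation or its use of strand. In both tables, 27 names were dates and 2 occurred more than once.

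The main test was limma 3.58.1 in R 4.3.3 (trend, robust) on log2 of the deposited value plus 1, so folds of low genes are understated. Genes needed 10 reads in enough libraries and 15 in all (filterByExpr of edgeR). NPY against cortex or ETV5 crosses tables and used reads scaled by median of ratios over the 12 libraries. Calls are Benjamini-Hochberg adjusted p-values under 0.05 over all genes, two-sided. DESeq2 1.42.0 and edgeR 4.0.16 on recovered reads, other scalings, pseudocounts and filters, a replicate block and leaving out each library were alternatives. Tests were tried on simulated data. Replicate numbers were not treated as pairs, since the labels give no pairing. Same-numbered libraries of different groups deviated together at correlations of -0.38 to 0.35, and differently numbered ones at -0.50 to 0.47. These ranges do not decide whether the numbers are pairs. The members and gene lists were chosen with earlier results of these data known. Genes are named from the lists mostly by size of change among called genes, or by abundance where fewer than 2 were called. Some further list members are named beside them.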

Additional observations from a re-analysis of the deposited data

How the results depend on the processing

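Of 364 recomputed log2 fold changes of NFI genes, 324 kept direction and side of the threshold, 15 lost it, 14 gained it and 11 changed sign. With scaling to library totals, which raised the median of all genes by 0.17, 0.18 and 0.16 on the log2 scale in control, ETV5 and NPY tumours against cortex, 2 members were called in control and 2 in ETV5 tumours, Nfix in ETV5 tumours against cortex turned to 0.12 and Nfic in NPY against control tumours to -0.021. With all libraries in 1 fit, 0 members were called in control and 2 in ETV5 tumours against cortex. With the replicate block, 0 were called in control and 0 in ETV5 tumours against cortex, and 2 in NPY tumours against cortex, as without it. For NPY against control tumours DESeq2 called 2, and a fit of all 12 libraries, added after the data were seen, called 1 (Nfia, adjusted p = 0.036, limma). Leaving out single libraries gave counts of 0 to 1 in control, 0 to 2 in ETV5 and 1 to 3 in NPY tumours against cortex. It gave -0.19 to 0.26 for Nfib in control tumours and -0.31 to 0.25 for Nfix in ETV5 tumours against cortex, and -0.11 to 0.12 for Nfia, -0.0035 to 0.69 for Nfib (both ETV5 against control) and -0.040 to 0.16 for Nfic (NPY against control). All genes called in NPY against control tumours numbered 727 as reported, 1833 with DESeq2, 1164 in the fit of all 12 libraries, 264 with the replicate block and 1 to 571 without single libraries. The causes were not tested. With the longest transcript as length, 8 of 16 group shares moved by more than 1 SD. NFI genes had 111 to 1934 reads per library.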
